A study of Mus musculus with 17 samples.

Results

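Myelo-dendritic progenitors (MDPs) of mouse bone marrow that expressed the VENUS fluorescent reporter were compared with wild-type MDPs, as 3 pools against 3. Both groups were chosen by title, IRF8_PAC_MDP and WT_MDP, and make up 6 of the 17 arrays of the series. Both were sorted with 1 gate: negative for lineage markers, Sca1 and CD127, positive for CD117 and the M-CSF receptor. The mice were 6 to 10 weeks old. Each wild-type pool held cells of 5 mice, and the labels give no number of mice for the VENUS-positive pools. The wild-type mice carried no named allele. The VENUS-positive pools came from reporter mice and carry the genotype label IRF8-deficient, and the labels say neither which allele that is, nor which sequence drives VENUS, nor whether an intact Irf8 copy is present. The groups are therefore named by VENUS expression. Other arrays used for reference were MDPs labelled IRF8 knockout (3 pools of 5 mice), MDPs without VENUS expression (2 pools, also labelled IRF8-deficient), and wild-type spleen macrophages and granulocytes (3 pools of 5 mice each).

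MDPs are bone marrow cells with restricted potential that give rise to monocytes, macrophages and dendritic cells. IRF8 is a transcription factor of the interferon regulatory family that acts with partners such as PU.1, the product of Spi1. It is known for promoting monocyte and dendritic cell fates and for limiting the output of neutrophils. The KIT receptor (CD117) and the M-CSF receptor, encoded by Csf1r, pass growth and survival signals to these progenitors, and FLT3 does so on the dendritic side.

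Levels are log2 values from the RMA method, with an array median of 4.33 to 4.48, so a difference of 1 is a 2-fold difference. The 6 MDP arrays were close to each other over probe sets. They correlated at 0.969 to 0.980 within the wild-type group, 0.959 to 0.971 within the VENUS-positive group and 0.958 to 0.976 between the groups, ranges that largely overlap. VENUS-positive arrays correlated at 0.954 to 0.970 with knockout-labelled, at 0.938 to 0.951 with VENUS-negative MDPs and at 0.786 to 0.917 with the spleen cells. These correlations describe arrays that share 1 probe design. Wild-type pool 3 stood apart. In it 62 genes were more than 2 log2 units above all 5 other arrays, against 1 to 12 genes in each of the others, and results that rest on it are given with and without it. The labels number the pools but do not say that their mice or sorts were independent, so each p-value rests on pool-to-pool spread, part of which may be technical.

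No gene passed the test between VENUS-positive and wild-type MDPs. With limma's moderated test, 0 of 17097 genes (0%) had an adjusted p under 0.05. The lowest adjusted p was 0.232. At an unadjusted p under 0.05 there were 1027 genes (6.01%), 523 of them higher and 504 lower in VENUS-positive pools. Without wild-type pool 3 the call was again 0 genes. A missed threshold does not show that 2 groups are alike, so the 95% confidence interval of each difference was read as well. For 14149 genes (82.8%) the interval lay wholly within 2-fold in either direction. For the other 2948 genes a difference of 2-fold or more could not be set aside at this number of arrays. The median difference was 0.02 and the median standard error 0.21. Differences of the means above 2-fold were found for 181 genes and above 4-fold, or 2 log2 units, for 13. These counts include genes of low signal. Among the 10231 genes with a mean at or above the median of all values, 7656 had an interval within 2-fold. That is a lower share than the 82.8% over all genes. In the fit over all 17097 genes, 155 genes (0.907%) were called between knockout-labelled and wild-type MDPs. There were 362 (2.12%) between knockout-labelled and VENUS-positive MDPs, and 1003 (5.87%) between VENUS-negative and VENUS-positive MDPs. These comparisons share samples with the first.

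**Figure D1:**
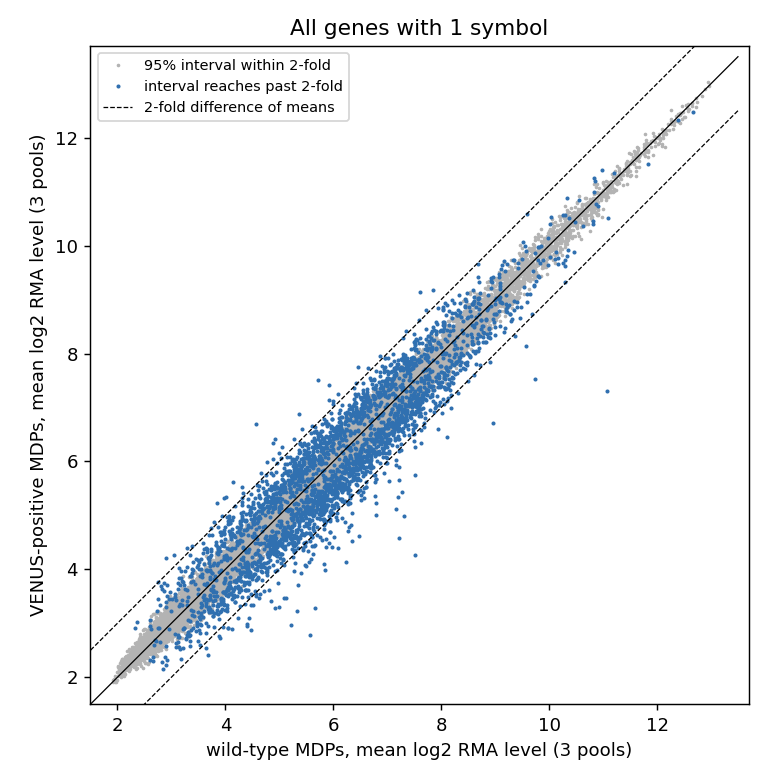
Mean log2 RMA level of each of the 17097 genes in VENUS-positive MDPs (y axis, 3 pools) against wild-type MDPs (x axis, 3 pools). Grey points are the 14149 genes whose 95% interval of the difference lay within 2-fold, blue points the other 2948, the solid line is equality and the dashed lines a 2-fold difference, and most genes lie between the dashed lines.

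Irf8 itself was at 10.27, 10.56 and 10.19 in wild-type pools 1 to 3 and at 10.72, 10.81 and 11.10 in VENUS-positive pools 1 to 3. The VENUS-positive pools were the higher ones and the groups did not overlap, which was the case for 935 genes (5.47%) in that direction. The difference of 0.54 (SE 0.42, 95% interval -0.35 to 1.43, limma adjusted p = 0.951) did not pass the test. A second probe set of Irf8 gave 0.61. The spread in this fit is shared over all groups, and Irf8 varied widely between the granulocyte pools (SD 1.20). Fitted without the granulocytes, the adjusted p was 0.613. Knockout-labelled pools were at 10.32, 10.42 and 10.18, so Irf8 RNA by this probe set does not separate them, and the labels do not place the probe set relative to the knocked-out part. VENUS-negative pools were at 5.49 and 6.25. RefSeq lists 2 starts for Irf8. The 250 bases before the first, at chr8:120736108-120736357 (plus strand, GRCm38.p6), are shown because Irf8 is the gene named in the titles, with the 2 matches to TTCNNNGAA, the letters of interferon-gamma activated sites, in capitals.
Irf8 promoter: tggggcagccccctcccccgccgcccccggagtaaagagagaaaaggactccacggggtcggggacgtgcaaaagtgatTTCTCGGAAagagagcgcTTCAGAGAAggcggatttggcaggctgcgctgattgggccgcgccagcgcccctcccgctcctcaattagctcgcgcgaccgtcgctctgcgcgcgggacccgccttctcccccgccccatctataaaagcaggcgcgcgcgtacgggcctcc
Of 32841 promoter windows of this length, 7.02% held a match on either strand, and the window before the second Irf8 start held 0. A match is a description of letters, not of a bound site.

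Spi1 was at 7.88, 7.30 and 7.46 in wild-type and at 7.75, 7.79 and 7.95 in VENUS-positive pools. The groups overlapped, and the difference of 0.28 (SE 0.16, limma adjusted p = 0.913) had an interval of -0.06 to 0.62. Kit and Csf1r, genes of the gate, were read as RNA here, whereas the gate was set on their proteins. Kit was at 7.50, 7.38 and 7.52 in wild-type pools and at 6.62, 7.40 and 6.89 in VENUS-positive pools, a difference of -0.50 (SE 0.23, limma adjusted p = 0.831). Csf1r was at 7.40, 7.76 and 7.52 against 8.05, 7.63 and 7.99, a difference of 0.33 (SE 0.27, limma adjusted p = 0.957). Both intervals stayed within 2-fold. Ly6a and Il7r, which encode Sca1 and CD127, were not analysed here.

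Other progenitor genes were read in both groups. Of 17 measured macrophage and dendritic progenitor genes, 6 were called higher and 7 lower in MDPs than in spleen macrophages and granulocytes, with no common direction. Over all genes, 22.8% were called higher and 21.1% lower in that contrast. Cd34, a sialomucin of early blood cells, was at 9.78, 9.89 and 9.25 in wild-type and 9.39, 9.79 and 9.64 in VENUS-positive pools, with a difference of -0.03 and an interval of -0.53 to 0.47. Flt3 was at 8.20, 8.51 and 8.26 against 8.17, 8.49 and 9.46, where VENUS-positive pool 3 was the highest. Cx3cr1, the fractalkine receptor gene by which MDPs have also been defined, was at 6.02, 6.52 and 7.12 against 7.52, 6.75 and 6.80. Neither Flt3 (difference 0.39) nor Cx3cr1 (0.47, or 0.75 without wild-type pool 3) had an interval within 2-fold. Between the MDP groups, 10 of these 17 genes lay within 2-fold, against 82.8% of all genes, 0 were called and the median difference was 0.12. Among these 17, Fcgr3, an Fc receptor gene, had the smallest p. It was at 7.08, 7.31 and 8.47 in wild-type and at 6.35, 6.28 and 6.42 in VENUS-positive pools. All VENUS-positive pools were lower, by 1.27 on the log2 scale (SE 0.26, limma adjusted p = 0.278), or by 0.85 without wild-type pool 3.

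**Figure D2:**
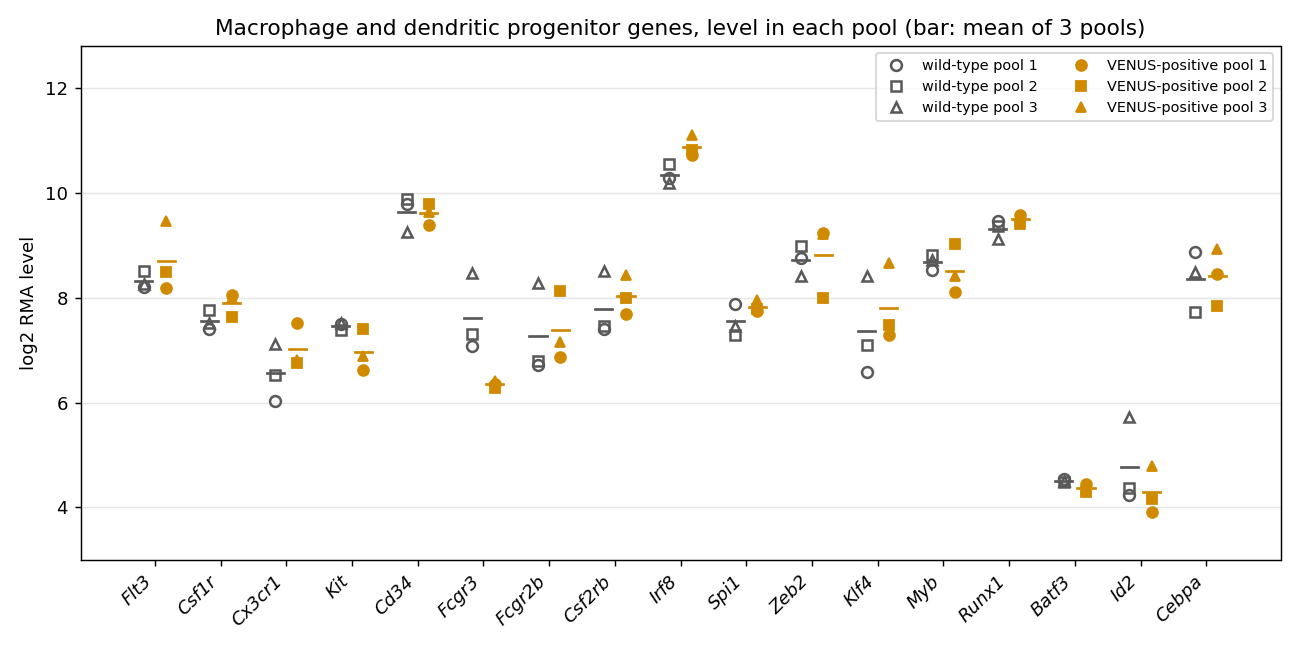
Log2 RMA level (y axis) of 17 macrophage and dendritic progenitor genes (x axis) in each wild-type pool (open grey symbols) and VENUS-positive pool (filled orange symbols), with bars at the mean of 3 pools. For most genes the symbols of both groups overlap, while all 3 VENUS-positive pools lie above the wild-type pools for Irf8 and below them for Fcgr3 and, by a small gap, Batf3.

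Both MDP groups shared a profile that set them apart from mature myeloid cells of the spleen. Against spleen macrophages and granulocytes, the 6 MDP arrays had 3890 genes higher (22.8%) and 3615 lower (21.1%) at a limma adjusted p under 0.05, 7505 in all (43.9%). In this contrast bone marrow and spleen, and progenitors and mature cells, cannot be told apart. Of the called genes, 5815 also had a VENUS-positive minus wild-type interval within 2-fold. When all 6 MDP arrays also had to lie on one side of all 6 spleen arrays, 1656 shared genes were higher and 1008 lower. Cd34 led the higher genes with an MDP minus spleen difference of 6.50 (SE 0.16, adjusted p = 3.16e-12), a 90.7-fold difference. Sox4 and Myb, transcription factors of immature blood cells, had differences of 5.26 and 5.24. The actin-binding calponin gene Cnn3 (5.73), Serpinf1 (5.56), Hacd1 (5.13), Bex6 (4.87), the TNF receptor family gene Cd27 (4.85), the protease inhibitor gene Cst7 (4.64), Gria3 (4.45) and Ung (4.41), which encodes a DNA repair glycosylase, were shared in the same way. Cd34, Sox4, Myb and Cd27 were also high in the other MDP groups. Their means were 8.38, 8.56, 8.68 and 8.95 in knockout-labelled and 8.05, 8.86, 9.34 and 8.67 in VENUS-negative MDPs. High levels of these genes are thus not particular to the groups compared. Rapgef3, an exchange factor gene that responds to cyclic AMP, was 4.44 higher in MDPs. Of the 24 largest shared genes it alone had a VENUS-positive minus wild-type interval that left out 0. It was at 8.10, 8.09 and 8.05 in wild-type and 7.39, 7.46 and 7.53 in VENUS-positive pools, with a difference of -0.62 (interval -0.97 to -0.27, limma adjusted p = 0.501).

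Among the shared genes lower in MDPs, chosen for lying below all spleen arrays, were genes of mature myeloid and interferon-responding cells. Il1b, the gene of the inflammatory cytokine IL-1 beta, was at 5.11, 4.66 and 4.34 in wild-type and 4.57, 4.29 and 4.39 in VENUS-positive pools, against 8.58 ± 0.39 (SD, n = 3) in spleen macrophages and 12.6 ± 0.14 in granulocytes. The MDP minus spleen difference was -6.02 (SE 0.14, limma adjusted p = 2.43e-12). The IL-1 antagonists Il1r2 (-4.49) and Il1rn (-4.39), the receptor gene Il13ra1 (-4.59), Prr5l (-4.47), the integrin gene Itgam that encodes CD11b (-4.34), the C-type lectin gene Clec4n (-4.14) and the MHC class II gene H2-Eb1 (-4.13) were also lower in MDPs. So were the interferon-stimulated genes Oas3 (-5.23), Ifi204 (-4.32) and Ifit3 (-4.13). Of 22 measured interferon-stimulated genes, 21 were called lower and 1 higher in the MDPs, against 21.1% lower and 22.8% higher over all genes. Between VENUS-positive and wild-type MDPs their median difference was -0.18, or 0.01 without wild-type pool 3.

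**Figure D3:**
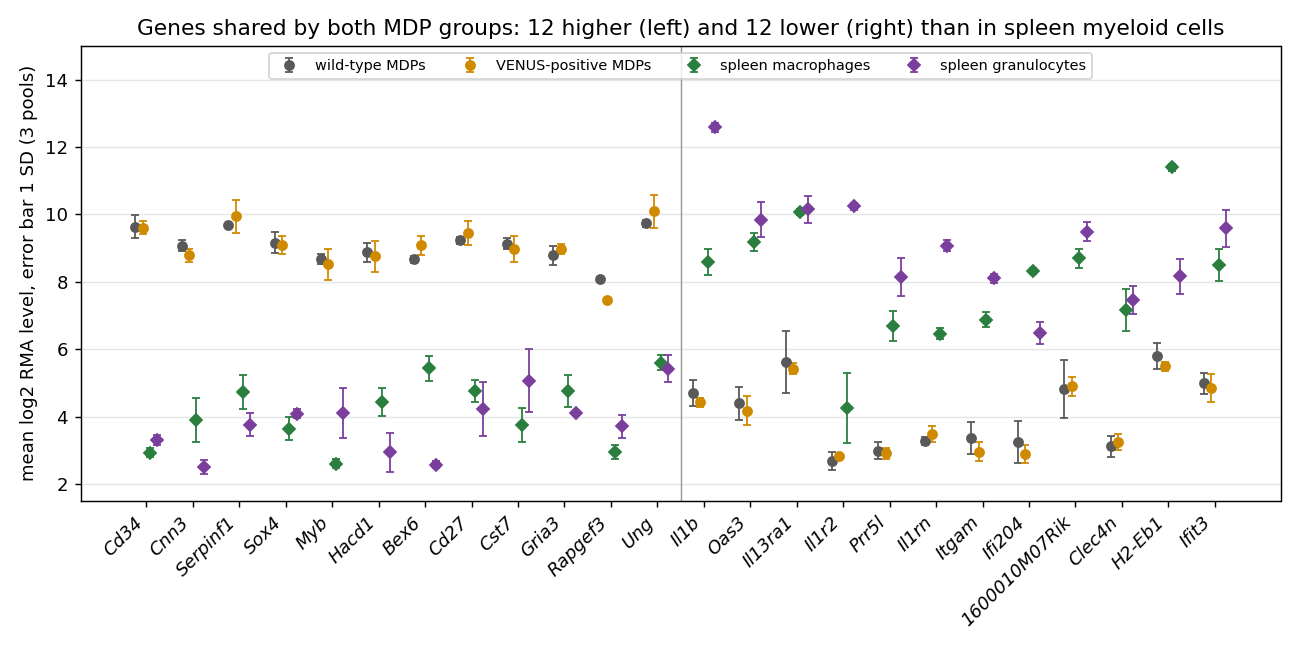
Mean log2 RMA level (y axis) with 1 SD over 3 pools in wild-type MDPs, VENUS-positive MDPs, spleen macrophages and spleen granulocytes for the shared genes with the largest differences (x axis), higher in MDPs on the left and lower on the right. The genes were chosen for a small difference between the MDP groups and for no overlap with the spleen arrays, so the closeness of grey and orange means and their distance from green and purple ones follow from that choice.

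Proliferation and ribosome genes were mostly called higher in MDPs than in the spleen cells as averaged, but not all met the rule for shared genes. The shares of all genes called in this contrast were 22.8% higher and 21.1% lower. Of 34 measured cell cycle genes, 30 were called higher and 2 lower in MDPs than in spleen cells, with a median difference of 2.42. The replication helicase gene Mcm2 was at 9.23, 8.87 and 9.16 in wild-type and at 8.95, 9.42 and 8.72 in VENUS-positive pools, 4.33 above the spleen cells. Between the MDP groups 18 of the 34 lay within 2-fold and the median difference was 0.03 (0.12 without wild-type pool 3), against 0.02 (0.03) over all genes. Ccnd1, which encodes cyclin D1, had the smallest p of this list. It was at 7.65, 7.45 and 7.56 in wild-type and 8.34, 8.04 and 8.35 in VENUS-positive pools, higher in all of the latter by 0.69 (SE 0.23, limma adjusted p = 0.611). All 14 measured ribosomal protein genes were called higher in MDPs than in the average of spleen macrophages and granulocytes. The list means were 11.72, 11.79 and 11.81 in macrophages and 10.23, 9.54 and 9.98 in granulocytes. They were 11.82, 11.76 and 11.89 in wild-type and 11.74, 11.77 and 12.03 in VENUS-positive pools. By these means macrophages were near the MDPs, and the granulocytes were the lower group. Between the MDP groups 13 of the 14 lay within 2-fold. All 8 housekeeping genes and 9 of 9 T-cell genes lay within 2-fold, as did 16 of 21 stem and early progenitor genes, which had a median difference of -0.03. The T-cell genes were of low signal, with list means of 3.86 to 4.30 in the compared pools, below the lowest array median of 4.33. Their intervals therefore say little about likeness. The share of all genes that lay within 2-fold was 82.8%.

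The negative medians of several lists of mature blood cell genes rested on wild-type pool 3. The genes farthest above the other 5 arrays there were Ear3 and Prg2, granule protein genes of eosinophils, then Chil4, Ngp, Chil3, Alox15, Jchain, S100a8, Camp and Prg3. S100a8, a calcium-binding protein gene abundant in neutrophils, was at 6.22, 3.62 and 11.87 in wild-type pools and at 7.05, 6.38 and 6.84 in VENUS-positive pools, and its difference went from -0.48 to 1.84 without wild-type pool 3. Prg2 was at 4.47, 3.95 and 10.26 against 3.91, 4.41 and 4.07. Wild-type pool 3 alone was high for both genes. Over 19 secondary and tertiary granule genes, the mean level was 4.76, 4.62 and 7.19 in wild-type and 5.06, 4.77 and 4.85 in VENUS-positive pools, and the median difference went from -0.51 to 0.08 without wild-type pool 3. Over 12 eosinophil, basophil and mast cell genes the means were 4.35, 4.37 and 6.74 against 4.22, 4.33 and 4.34, and the median went from -0.95 to -0.02. Monocyte and macrophage genes (31 measured) went from -0.31 to 0.01. NK-cell genes had means of 4.06, 4.13 and 5.31 against 4.29, 4.09 and 4.36, and their median went from -0.12 to 0.05. B-cell genes had means of 3.90, 3.85 and 4.37 against 4.19, 3.95 and 4.11. Their median was not negative, at 0.02, or 0.12 without wild-type pool 3. The T-cell median did not rest on that pool, at -0.08 with it and -0.12 without it. In pooled cells, more cells of a type and more RNA per cell cannot be told apart. None of the lists had a called gene, with or without that pool.

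**Figure D4:**
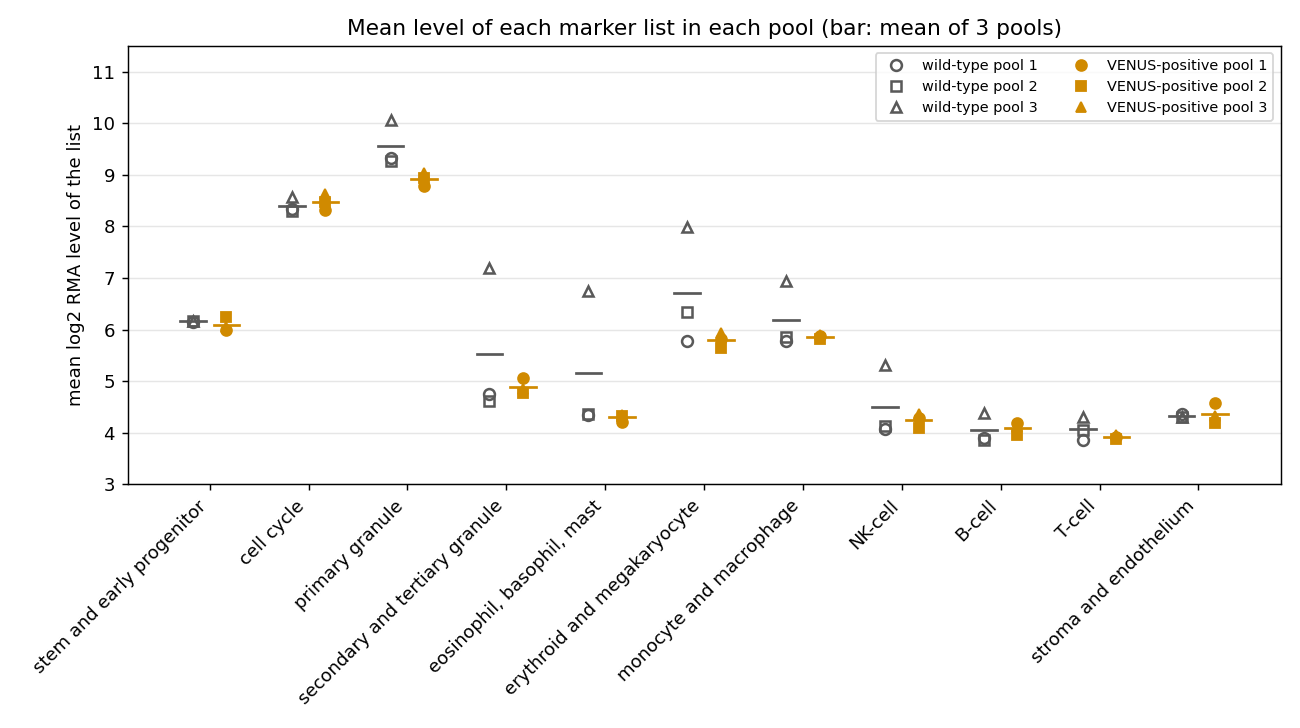
Mean log2 RMA level over the measured genes of 11 lists (x axis) in each wild-type pool (open grey symbols) and VENUS-positive pool (filled orange symbols), with bars at the mean of 3 pools. The triangle of wild-type pool 3 lies above the other 5 symbols for granule, eosinophil, erythroid, monocyte and NK-cell lists and, by a smaller gap, for B-cell and T-cell lists. The symbols for stem and early progenitor and cell cycle genes lie together.

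Red cell and platelet genes varied over all 3 wild-type pools. Car1, the carbonic anhydrase 1 gene of early red cells, was at 5.50, 7.20 and 8.93 in wild-type and at 4.75, 4.61 and 4.40 in VENUS-positive pools. The groups did not overlap, and the difference was -2.62 (SE 0.56, limma adjusted p = 0.278), or -1.77 without wild-type pool 3. When wild-type pool 1 was left out instead, Car1 passed the test, at -3.48 (adjusted p = 0.00753). Pf4, a platelet chemokine gene, was at 2.82, 5.46 and 8.40 against 2.68, 2.77 and 2.87, so wild-type pool 1 was as low as the VENUS-positive pools. The difference was -2.79, and -1.37 without wild-type pool 3. Ermap, a red cell membrane gene, was at 5.79, 5.51 and 8.15 against 4.39, 4.16 and 5.29 (difference -1.87, or -1.04 without that pool). Globin genes behaved otherwise. Hbb-b2 was at 9.68, 9.29 and 12.45 in wild-type and 10.18, 10.14 and 11.01 in VENUS-positive pools, and the groups overlapped, with a difference of -0.04, or 0.95 without wild-type pool 3. Over 16 red cell and megakaryocyte genes the median difference was -0.80, and -0.27 without wild-type pool 3.

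The primary granule list had lower means in VENUS-positive pools throughout. It holds genes of granule enzymes made at the promyelocyte stage, such as Mpo. It also holds genes of other products, among them Ms4a3, Gstm1 and the repressor gene Gfi1. Its counts therefore do not describe granule proteins alone. All 13 measured differences were negative, from -1.43 to -0.12, and 7 of the 13 did not overlap between the groups, against 783 of all genes (4.58%) in that direction. None passed the test. Ms4a3, a gene of granulocyte and monocyte progenitors, was at 9.23, 9.11 and 10.40 in wild-type and at 8.11, 8.04 and 8.29 in VENUS-positive pools. The difference was -1.43 (SE 0.43, limma adjusted p = 0.527), and -1.02 without wild-type pool 3. Gstm1, a glutathione transferase gene, was at 9.37, 9.32 and 10.37 against 8.47, 9.01 and 8.70 (difference -0.96, or -0.62 without that pool). Nkg7 was at 7.06, 6.86 and 8.56 against 6.29, 6.53 and 6.31 (difference -1.12, or -0.58 without it). Mpo, the myeloperoxidase gene, was near the top of the scale in both groups, at 12.65, 12.70 and 12.64 against 12.42, 12.54 and 12.49 (difference -0.18). Without wild-type pool 3 the median of the list went from -0.66 to -0.20, with all 13 differences still negative. Csf3r, the G-CSF receptor gene of granulocytes, was at 6.52, 7.44 and 7.08 in wild-type and 6.32, 6.23 and 5.94 in VENUS-positive pools, lower in all of the latter by 0.86 on the log2 scale (limma adjusted p = 0.527).

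Immediate early genes, which cells transcribe within minutes of a stimulus, held some of the widest gaps between the groups, and these did not come from wild-type pool 3. Dusp1, a phosphatase gene that damps MAP kinase signals, was at 9.02, 8.60 and 9.25 in wild-type and at 6.24, 6.83 and 7.09 in VENUS-positive pools. Its difference of -2.24 (SE 0.35, interval -2.99 to -1.48, limma adjusted p = 0.232) had the smallest p of all genes, and was -2.09 without wild-type pool 3. Fosb, a subunit of the AP-1 transcription factor, was at 7.76, 6.45 and 8.33 against 4.16, 4.98 and 3.64, a difference of -3.25 (SE 0.71, limma adjusted p = 0.304). Fos was at 9.83, 9.49 and 9.89 against 7.71, 8.44 and 6.40 (difference -2.22, limma adjusted p = 0.459). For all of these the 3 wild-type pools lay above the 3 VENUS-positive pools. Jun, the AP-1 partner of Fos, had a smaller gap, at 10.35, 10.22 and 10.35 against 9.88, 10.15 and 9.15. Egr1 was at 6.16, 6.24 and 7.33 against 5.99, 5.24 and 4.76. Of 15 measured members, 7 did not overlap and were lower in VENUS-positive pools (Fos, Fosb, Jun, Egr1, Ier3, Dusp1 and Nr4a1), against 4.58% of all genes, and 0 did not overlap and were higher. The median difference of the 15 was -0.36, and -0.34 without wild-type pool 3. Hspa1b, a heat shock gene, went its own way, at 9.06, 5.71 and 9.33 against 9.33, 9.82 and 7.35.

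The same genes varied within the other MDP groups. Fos was at 10.87, 10.33 and 9.14 in knockout-labelled and 7.11 and 8.76 in VENUS-negative pools. Dusp1 was at 9.96, 9.07 and 8.40 in knockout-labelled and 8.16 and 8.52 in VENUS-negative pools, above all VENUS-positive pools in each case. Fosb was at 8.18, 8.32 and 5.40 in knockout-labelled pools. The part of handling or sorting in these levels was not tested. Promoters of Dusp1 and Fosb, the members with the smallest p of this list, are shown with matches to TGACG, the core letters of cyclic AMP response elements, in capitals. They are the 250 bases before each RefSeq start on GRCm38.p6, at chr17:26508473-26508722 and chr7:19310046-19310295, both on the minus strand.
Dusp1 promoter: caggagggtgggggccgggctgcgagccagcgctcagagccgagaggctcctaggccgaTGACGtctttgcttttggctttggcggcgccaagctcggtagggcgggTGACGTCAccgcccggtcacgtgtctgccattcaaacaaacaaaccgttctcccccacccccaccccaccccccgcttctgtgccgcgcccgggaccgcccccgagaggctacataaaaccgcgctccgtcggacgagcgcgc
Fosb promoter: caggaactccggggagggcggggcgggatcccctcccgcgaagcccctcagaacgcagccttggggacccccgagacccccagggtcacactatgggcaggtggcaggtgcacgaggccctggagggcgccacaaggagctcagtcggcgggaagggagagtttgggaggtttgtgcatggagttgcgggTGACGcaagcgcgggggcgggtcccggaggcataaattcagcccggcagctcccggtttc
Searched on both strands, these letters matched 3 times before Dusp1, where 2 of the matches overlap in 1 TGACGTCA, and 1 time before Fosb. Of all windows, 17.8% held TGACG and 1.55% TGACGTCA.

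**Figure D5:**
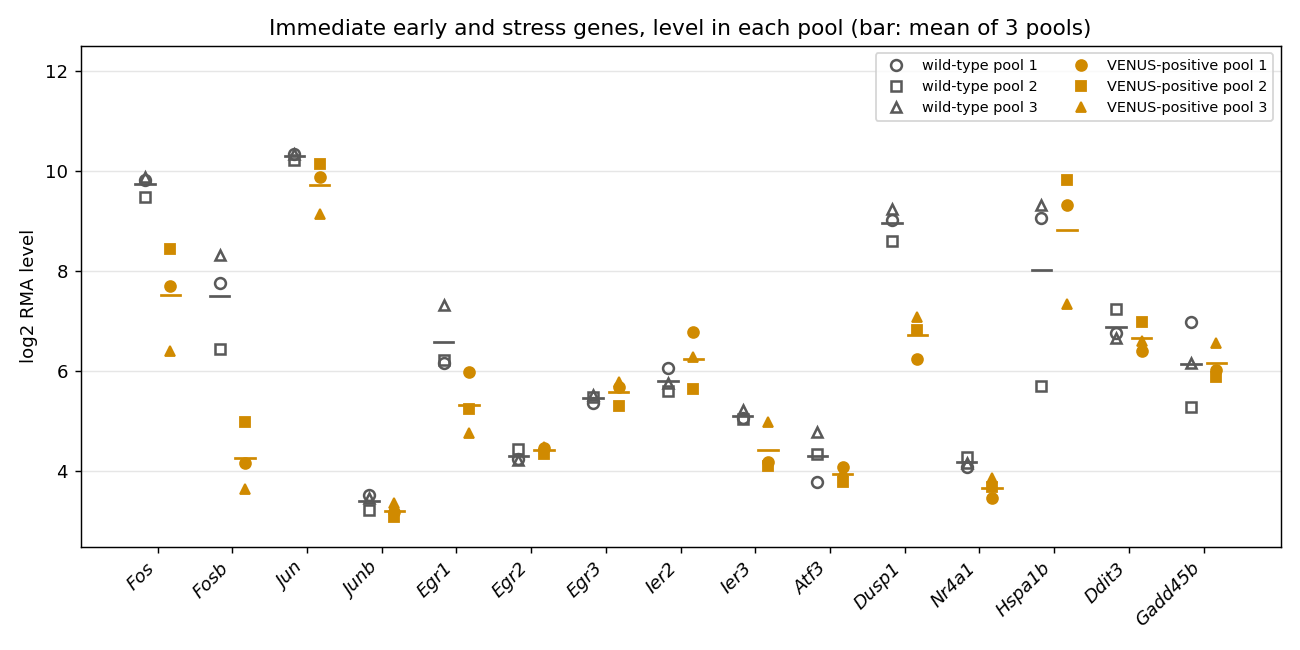
Log2 RMA level (y axis) of 15 immediate early and stress genes (x axis) in each wild-type pool (open grey symbols) and VENUS-positive pool (filled orange symbols), with bars at the mean of 3 pools. All orange symbols lie below all grey ones for Fos, Fosb, Jun, Egr1, Ier3, Dusp1 and Nr4a1, and the groups overlap for the others.

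Outside that list, the smallest p-values on the lower side belonged to Ccl3, Gja1, Plcb1 and Usp16. Ccl3, a chemokine gene that is also induced early in myeloid cells, was at 7.20, 7.09 and 7.64 in wild-type and at 5.44, 5.50 and 4.02 in VENUS-positive pools, a difference of -2.32 (SE 0.41, limma adjusted p = 0.232). Gja1, which encodes the gap junction protein connexin 43, was at 7.67, 7.04 and 7.09 against 6.40, 4.91 and 4.99. VENUS-positive pool 1 was nearer the wild-type level, and without it the difference went from -1.83 (adjusted p = 0.232) to -2.31 (adjusted p = 0.00297). The other probe sets of Gja1 gave -1.41, -1.37, -0.94 and 0.10. Plcb1, a phospholipase gene, was at 6.45, 6.38 and 6.19 against 4.32, 4.52 and 4.74 (difference -1.82), but its other probe sets, of low signal, gave -0.42, -0.26 and -0.14. The deubiquitinase gene Usp16 had -0.98 by one probe set and -0.20 by the other.

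On the higher side the smallest p-values belonged to E4f1, Cd244a, Prcc, Lclat1 and Cwc25, none of which passed. E4f1 was at 4.94, 5.12 and 5.03 in wild-type and at 6.05, 6.23 and 5.89 in VENUS-positive pools, a difference of 1.02 (SE 0.19, limma adjusted p = 0.232). Cd244a, a receptor gene of the SLAM family, was at 5.84, 5.46 and 6.48 against 7.35, 7.23 and 7.66 (difference 1.49), and its other probe set gave 0.32. Prcc had a difference of 1.13, Lclat1 of 1.34 and Cwc25 of 1.14, with -0.01 by the other probe set of Cwc25. Each of the 5 had all VENUS-positive pools above all wild-type pools by the probe set that stood for the gene.

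No dendritic cell gene passed the test. Of 18 conventional dendritic cell genes, 13 lay within 2-fold and the median difference was 0.01. Of 13 plasmacytoid dendritic cell genes, 11 did, with a median of -0.03, or 0.08 without wild-type pool 3. The share within 2-fold over all genes was 82.8%. Itgax, which encodes the dendritic cell integrin CD11c, had the smallest p among the former. It was at 3.36, 4.25 and 3.94 in wild-type pools, around or below the array median, and at 5.21, 5.30 and 5.20 in VENUS-positive pools. The difference of 1.39 (SE 0.30, interval 0.75 to 2.02, limma adjusted p = 0.278) did not pass, and was 1.43 without wild-type pool 3. Spleen macrophages were at 8.15, 8.57 and 8.41. Kmo, an enzyme gene of tryptophan breakdown, was at 6.57, 5.93 and 6.66 against 7.22, 6.92 and 7.04 (difference 0.67). Spib, a PU.1 relative of plasmacytoid and B cells, was at 4.94, 5.02 and 5.27 against 4.09, 4.09 and 4.40 (difference -0.88, limma adjusted p = 0.501).

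Of 17 reported IRF8 targets, 12 lay within 2-fold, against 82.8% of all genes. Their median difference was 0.03, or 0.20 without wild-type pool 3, when the number of targets higher in VENUS-positive pools with no overlap went from 1 to 5. Over all genes that number went from 935 to 1882. Cst3, the cystatin C gene, was at 10.94, 10.91 and 11.16 in wild-type and 11.10, 10.93 and 11.46 in VENUS-positive pools. Ctss, a lysosomal protease gene, was at 9.68, 9.66 and 10.52 against 9.70, 10.16 and 10.00. Aif1, an actin-bundling protein gene of macrophages, had the widest gap of the list. It was at 5.90, 4.28 and 6.95 against 7.41, 7.24 and 7.87, higher in all VENUS-positive pools by 1.79 (SE 0.50, limma adjusted p = 0.506) and by 2.41 without wild-type pool 3. Among 13 MHC class II presentation genes, 6 lay within 2-fold and 9 differences were positive, with a median of 0.18. Without wild-type pool 3 the median was 0.31, and the members higher with no overlap went from 1 to 4. H2-DMb2, a peptide-loading chaperone gene, was at 6.45, 6.20 and 6.55 against 6.88, 7.34 and 7.11 (difference 0.71, limma adjusted p = 0.527). Cd74, the invariant chain gene, was at 4.52, 4.39 and 7.99 against 6.34, 5.94 and 6.24. Its VENUS-positive pools lay between the 2 low wild-type pools and wild-type pool 3, and the difference went from 0.54 to 1.72 without the latter.

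Transcription factors and receptors gave a mixed picture without a called gene. Of 40 myeloid transcription factor genes, 24 lay within 2-fold, against 82.8% of all genes. Of the 40, 11 did not overlap and were lower in VENUS-positive pools (Gfi1, Gfi1b, Egr1, Klf2, Klf6, Batf3, Nr4a1, Jun, Fos, Fosb and Myc), 5 of them being the immediate early genes above, and 3 did not overlap and were higher (Irf8, Bach2 and Runx3). The shares over all genes were 4.58% lower and 5.47% higher. Bach2, a repressor gene of lymphoid and progenitor cells, was at 6.61, 6.97 and 6.47 in wild-type and 7.58, 7.35 and 7.71 in VENUS-positive pools. The difference was 0.86 (SE 0.20, limma adjusted p = 0.378), with 0.38 and -0.19 by other probe sets. Gfi1, a repressor of the granulocyte lineage, was at 7.65, 8.05 and 8.67 against 7.32, 7.48 and 7.29 (difference -0.76, or -0.49 without wild-type pool 3). Gfi1b, its relative in red cell and platelet precursors, was at 5.29, 5.61 and 6.38 against 4.94, 3.95 and 4.90 (difference -1.16). Klf2 was at 6.46, 6.18 and 7.08 against 5.57, 5.50 and 5.46 (difference -1.06). Klf4, a monocyte factor, varied in both groups, at 6.57, 7.09 and 8.41 against 7.28, 7.48 and 8.66. Of 24 cytokine and growth factor receptor genes, 18 lay within 2-fold, where the share over all genes was 82.8%. Lifr, a receptor gene of the IL-6 family, was at 3.94, 3.75 and 4.06 against 4.27, 5.34 and 4.32 (difference 0.72, limma adjusted p = 0.611).

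No gene that neighbours Irf8 on the chromosome passed the test. Of 17 measured, Irf8 among them, 12 lay within 2-fold, against 82.8% of all genes, and the median difference was 0.16. Cox4i1, a respiratory chain gene, was at 10.91, 10.69 and 10.94 in wild-type and 10.57, 10.80 and 10.93 in VENUS-positive pools. Emc8 was at 7.59, 7.09 and 7.83 against 7.82, 7.66 and 8.01 (difference 0.32, or 0.49 without wild-type pool 3). The pools also differed in sex-linked genes. Xist, expressed from the inactive X chromosome of female cells, was at 11.76, 11.15 and 10.32 in wild-type and at 5.44, 4.86 and 11.65 in VENUS-positive pools. The Y-linked gene Kdm5d was at 6.17, 7.69 and 7.52 against 8.44, 8.21 and 4.49. VENUS-positive pools 1 and 2 were thus low in Xist and high in Kdm5d, pool 3 the reverse, and the wild-type pools high in Xist with Kdm5d between. The part of sex in other differences was not tested.

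Beside the MDPs labelled IRF8 knockout, VENUS-positive MDPs lay near the wild type in several of the genes that marked the knockout most, and apart from it in others. The genes named here were chosen for their difference between knockout-labelled and wild-type pools, so the values of both are a description. The VENUS-positive minus wild-type differences share those wild-type values and are not free of that choice. Ly86, which encodes the MD-1 protein of toll-like receptor relatives, was at 10.27, 9.88 and 10.09 in wild-type and at 9.94, 10.63 and 10.19 in VENUS-positive pools, and at 3.87, 3.08 and 3.24 in knockout-labelled pools. The VENUS-positive minus wild-type difference was 0.17 (interval -0.44 to 0.78). The cathepsin gene Ctsh was at 7.98, 7.52 and 8.91, then 8.13, 8.06 and 8.52, then 3.78, 3.23 and 3.31 in the same order of groups (difference 0.10, interval -0.53 to 0.72). Lsp1, a leukocyte actin-binding protein gene, was at 8.26, 7.17 and 8.88, then 8.84, 8.94 and 8.91, then 5.28, 4.53 and 4.80 (difference 0.80, interval 0.08 to 1.51). Mmp8, a neutrophil collagenase gene that was high in the knockout-labelled pools at 8.81, 8.51 and 8.41, was at 4.41, 3.69 and 5.56 in wild-type and 4.33, 4.21 and 3.19 in VENUS-positive pools. Ctse, a second cathepsin gene, was at 7.01, 6.71 and 8.85 in wild-type, 5.30, 6.00 and 5.96 in VENUS-positive and 3.28, 2.92 and 3.51 in knockout-labelled pools, so the VENUS-positive pools lay between the others. Its VENUS-positive minus wild-type difference of -1.77 (interval -3.08 to -0.47, limma adjusted p = 0.633) did not pass the test, and was -1.11 without wild-type pool 3. Car1, the red cell gene given above, was also among the genes lower in the knockout. Its knockout-labelled pools were at 3.28, 3.85 and 3.34, and its VENUS-positive pools lay nearer to these (knockout-labelled minus VENUS-positive -1.10, limma adjusted p = 0.519) than to the wild type (-2.62). Mrgpra2b, a receptor gene that was high in the knockout-labelled pools, at 9.49, 8.79 and 8.20, was at 4.73, 4.83 and 6.29 in wild-type and 4.44, 3.52 and 4.37 in VENUS-positive pools. Its VENUS-positive minus wild-type difference was -1.17 (interval -2.11 to -0.23), away from the knockout-labelled level. That difference did not pass the test, and it was widened by wild-type pool 3, which lay well above the other wild-type pools.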

How the data were processed

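RNA of 17 pools of sorted mouse cells in 6 groups was hybridised to 1 Affymetrix array each. The authors' deposited table holds log2 values from RMA in Affymetrix Expression Console, per the submitters' processing notes, which name no version. The values spanned 1.69 to 13.5 over 45037 probe sets. The platform annotation paired 28898 of these with a single gene symbol, 551 with several and 15588 with no symbol. They covered 17097 genes, and where a gene had several probe sets (7180 genes) the one with the greatest average signal over all arrays was used. No filter on signal was applied, and 0 pairs of arrays were identical.

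Differences were tested with limma 3.58.1 (R 4.3.3), by lmFit and eBayes in 1 fit of a mean per group over the 17 arrays, with 11 residual and 3.21 prior degrees of freedom. P-values were two-sided and Benjamini-Hochberg adjusted over all genes, with calls at an adjusted p under 0.05. SE is limma's standard error and intervals are at 95%. The step was tested on simulated data. The number of arrays limits the precision.

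Genes were named by a rule: Irf8, Spi1, the gate genes, the 5 smallest p-values each way when fewer than 5 genes were called, the 12 largest shared genes each way, 2 members of each list by smallest p, and the 10 genes farthest above the other arrays in the array with most of them. Predicted genes and RIKEN clones outside the 5 largest were not named. Other named genes were chosen after their values were seen. The 30 lists held 460 genes, 399 of them measured. The comparison, lists and members were chosen with earlier results of these data known. Deviations of same-numbered pools from their group means correlated at -0.01, -0.02 and 0.09, so pools were taken as unpaired. Alternatives were every probe set, a filter on low signal, median centring, a second quantile normalization, the 6 arrays alone, array weights, an intensity trend, pool number as a block, and leaving out each pool. Promoters came from RefSeq windows of GRCm38.p6, matched for Irf8, Dusp1 and Fosb.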

Additional observations from a re-analysis of the deposited data

How the results depend on the processing

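The count of genes called between VENUS-positive and wild-type MDPs was 0 in the fit as designed and in every alternative that kept all pools, among them every probe set with 1 symbol (lowest adjusted p 0.0553), and ranged from 0 to 4 when 1 pool was left out. Without wild-type pool 1 the 4 were Car1, Pf4, Ppbp and Ces2g, all lower. Without VENUS-positive pool 1 the 3 were Gja1 and Parp10, lower, and Ryr1, higher. Without VENUS-positive pool 3 it was 1, Nexn, higher. Genes within 2-fold numbered 12941 to 13462 of 17097 with a pool left out, and 23323 of the 28898 probe sets. Under the filter on low signal they numbered 7656 of 10231 genes, a lower share than over all genes. MDP minus spleen calls numbered 6843 to 7816 with a pool left out and 12019 over probe sets. The Irf8 difference stayed between 0.43 and 0.64 and passed the test in no setting. No paired design was used, and with pool number as a replicate block the fit of 6 arrays called 0 genes (lowest adjusted p 0.922, 14295 within 2-fold) and that of 17 arrays 0 genes (0.254, 14209), so the block changed no call. Among the 62 single genes rerun under the alternatives, the Y-linked Uty was the one whose VENUS-positive minus wild-type difference turned direction, from -0.08 with all pools to 0.30 without wild-type pool 2, 0.04 without VENUS-positive pool 1 and 0.23 without VENUS-positive pool 3, in a range of -0.51 to 0.30 over the left-out pools, and the cause was not tested. Genes not among these were compared only with and without wild-type pool 3, where S100a8 went from -0.48 to 1.84, Hbb-b2 from -0.04 to 0.95 and Ccr2 from -0.12 to 0.14, among others. Car1 and Gja1 passed the test only with a pool left out, as given above. Over the lists and settings, 15 list medians of 7 lists moved by more than the spread between pools and 449 did not. The settings of 6 arrays without wild-type pool 3 and of a fit without granulocytes were chosen after seeing the data and called 0 genes each (lowest adjusted p 0.530 and 0.0573). Low signal limits what can be seen of genes near the lower quartile of the arrays, 3.18 to 3.42.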

Other observations

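VENUS-positive pool 1 also had genes of its own, 12 above and 5 below the other 5 arrays by more than 2 log2 units. Zfx, an X-linked zinc finger gene, was at 9.67 there and between 6.31 and 7.20 in the others. Lmo4, a LIM domain adaptor gene, was at 5.37 there, with 8.15, 7.59 and 8.83 in wild-type and 8.09 and 7.51 in the other VENUS-positive pools. Tgtp1, an interferon-induced GTPase gene, was at 4.21 there and between 6.49 and 7.03 in the others. These genes were chosen after their values were seen.

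Apoptosis and chemokine receptor genes added no called gene. Bcl2, the survival gene, was at 11.03, 11.23 and 10.65 in wild-type and 11.70, 10.87 and 11.66 in VENUS-positive pools (difference 0.44, limma adjusted p = 0.942), and 9 of 12 BCL2 family genes lay within 2-fold. Of 11 chemokine receptor genes 7 did. The share over all genes was 82.8%. Ccr2, the receptor that guides monocytes out of the marrow, had a difference of -0.12, with an interval within 2-fold, or 0.14 without wild-type pool 3.

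A probe set of Lifr that did not stand for the gene had the smallest p of all probe sets with 1 symbol. It had a mean of 3.16 in wild-type and 4.41 in VENUS-positive pools, a difference of 1.25 (limma adjusted p = 0.0553 over 28898 probe sets), and did not pass the test. Among the 16139 probe sets with several symbols or none, 0 were called by limma, 875 had an unadjusted p under 0.05, and the lowest adjusted p was 0.0993.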
